A study of Homo sapiens with 16 samples.

Results

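Gene deserts are long stretches of the genome without protein-coding genes. Open chromatin regions in the deserts of human IMR90 fibroblasts were followed here by ATAC-seq, in which Tn5 transposase inserts sequencing adapters into accessible DNA, so that accessible sites appear as peaks of reads. The peaks of 16 lists on chromosomes 1 to 22 were pooled and overlapping intervals were merged. Regions with a peak in at least 2 libraries were kept, and a region was assigned to the gene deserts when its midpoint lay 500 kb or more from the body of every protein-coding gene. This gave 5381 gene desert regions among 291731 autosomal regions, or 1.84%, and the other 286350 are called the remaining regions. IMR90 is a strain of fibroblasts from human lung.

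The cells carried a retroviral fusion of activated B-RAF to the oestrogen receptor, ΔB-RAF:ER, which is switched on with 4-hydroxytamoxifen. There were 4 libraries in each of 4 groups: Raf-active cells in hypoxia at 0.5% O2, Raf-active cells in normoxia, Raf-inactive cells in hypoxia and Raf-inactive cells in normoxia. The labels give neither the length of treatment nor the vehicle of the Raf-inactive cells, and whether the replicates are separate cultures is not stated, so a p-value here speaks of the spread among these libraries, which may be technical. The model is limited to 1 cell strain and to a fusion protein delivered by a retrovirus.

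Gene deserts are known as gene-poor, mostly late-replicating chromatin that often lies against the nuclear lamina and carries heterochromatin marks. Some also hold enhancers that act over long distances, above all beside genes of developmental transcription factors such as SOX9 and beside MYC. In fibroblasts, sustained Raf signalling is a classical trigger of senescence, in which heterochromatin at the lamina is reorganised. The title of the series names heterochromatin, histone methylation and low oxygen in Raf-induced senescence. The comparisons below ask how the called regions of the deserts differed with Raf and with oxygen.

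No protein-coding promoter can lie in the deserts, so the promoters shown are those of long non-coding RNA genes. Of 641 promoter windows of the RefSeq table that lay in deserts, 47 overlapped a gene desert region, and all of them belonged to long non-coding RNA genes. They covered 42 genes and 41 regions, of which 11 had a peak in all 16 libraries. Another 9 had a peak in 4 of 4 Raf-inactive and in 0 of 4 Raf-active normoxia libraries, and 4 showed the opposite. Over all 5381 gene desert regions, 18.6% had a peak in all 16 libraries. The Raf-inactive pattern in normoxia held 22.7% of them and 10.6% of all autosomal regions, and its opposite 7.34% and 14.2%. Per outcome, the 3 windows whose regions ranked highest in the lists are shown, 1 per region; they were chosen after their values were seen. Each is 300 bases long, from 250 before to 50 after the annotated start, in RefSeq's GRCh38.p14, written 5′ to 3′ on the strand of the gene. Capitals mark CG pairs, the sites of DNA methylation.

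Promoters of regions with a peak in all 16 libraries stand first: LINC00662 at chr19:27793891-27794190 (minus strand), LINC02226 at chr5:8457515-8457814 (minus strand) and a start of LOC124903082 at chr12:115337720-115338019 (minus strand).
LINC00662: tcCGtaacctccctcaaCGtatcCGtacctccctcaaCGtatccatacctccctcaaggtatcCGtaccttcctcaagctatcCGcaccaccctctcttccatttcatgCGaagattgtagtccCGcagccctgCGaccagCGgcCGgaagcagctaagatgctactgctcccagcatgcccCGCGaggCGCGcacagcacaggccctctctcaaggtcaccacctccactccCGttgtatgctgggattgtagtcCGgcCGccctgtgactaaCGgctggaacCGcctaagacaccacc
LINC02226: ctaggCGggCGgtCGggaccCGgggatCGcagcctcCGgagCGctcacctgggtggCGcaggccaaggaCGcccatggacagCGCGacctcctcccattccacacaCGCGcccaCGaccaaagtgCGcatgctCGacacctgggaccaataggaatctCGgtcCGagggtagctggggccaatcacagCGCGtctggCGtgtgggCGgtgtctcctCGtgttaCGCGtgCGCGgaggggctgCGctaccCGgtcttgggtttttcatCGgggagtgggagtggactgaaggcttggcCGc
LOC124903082, constant start: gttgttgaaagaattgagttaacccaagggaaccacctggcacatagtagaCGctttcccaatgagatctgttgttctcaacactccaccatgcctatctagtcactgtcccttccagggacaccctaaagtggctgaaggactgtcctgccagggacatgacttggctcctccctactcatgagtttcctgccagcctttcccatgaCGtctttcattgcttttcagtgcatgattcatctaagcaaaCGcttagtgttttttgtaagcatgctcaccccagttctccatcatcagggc

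Promoters of regions lost with Raf in normoxia come next: LOC107986154 at chr3:177934243-177934542 (minus strand), LOC105379082 at chr5:92688177-92688476 (minus strand) and LOC105378740 at chr1:55854878-55855177 (minus strand).
LOC107986154: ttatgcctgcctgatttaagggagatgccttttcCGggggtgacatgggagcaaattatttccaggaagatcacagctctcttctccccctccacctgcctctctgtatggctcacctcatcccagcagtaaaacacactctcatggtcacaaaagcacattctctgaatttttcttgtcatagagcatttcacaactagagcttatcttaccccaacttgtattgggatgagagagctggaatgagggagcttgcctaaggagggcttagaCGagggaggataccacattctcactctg
LOC105379082: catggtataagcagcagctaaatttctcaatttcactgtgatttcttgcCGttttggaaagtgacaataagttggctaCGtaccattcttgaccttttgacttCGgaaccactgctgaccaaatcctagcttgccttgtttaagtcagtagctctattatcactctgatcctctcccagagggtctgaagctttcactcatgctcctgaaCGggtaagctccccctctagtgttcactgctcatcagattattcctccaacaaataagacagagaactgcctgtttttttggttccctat
LOC105378740: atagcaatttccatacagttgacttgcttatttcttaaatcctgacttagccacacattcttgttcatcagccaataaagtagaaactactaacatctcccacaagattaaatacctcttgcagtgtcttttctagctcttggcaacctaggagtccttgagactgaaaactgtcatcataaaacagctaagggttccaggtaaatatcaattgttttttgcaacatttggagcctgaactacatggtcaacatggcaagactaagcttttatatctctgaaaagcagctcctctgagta

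Promoters of regions gained with Raf in normoxia close the set: another start of LOC124903082 at chr12:115320755-115321054 (minus strand), LINC02234 at chr5:97840508-97840807 (plus strand) and LINC02309 at chr14:86331333-86331632 (plus strand).
LOC124903082, gained start: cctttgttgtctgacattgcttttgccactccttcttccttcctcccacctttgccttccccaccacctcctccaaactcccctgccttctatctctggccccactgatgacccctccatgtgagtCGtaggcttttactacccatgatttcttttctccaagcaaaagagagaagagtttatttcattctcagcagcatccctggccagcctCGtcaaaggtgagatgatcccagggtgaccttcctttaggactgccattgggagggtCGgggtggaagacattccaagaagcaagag
LINC02234: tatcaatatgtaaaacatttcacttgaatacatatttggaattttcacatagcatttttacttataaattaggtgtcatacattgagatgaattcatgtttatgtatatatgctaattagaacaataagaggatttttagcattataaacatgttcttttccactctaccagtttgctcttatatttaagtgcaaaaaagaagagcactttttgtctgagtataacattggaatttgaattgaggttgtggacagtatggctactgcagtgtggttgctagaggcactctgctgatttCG
LINC02309: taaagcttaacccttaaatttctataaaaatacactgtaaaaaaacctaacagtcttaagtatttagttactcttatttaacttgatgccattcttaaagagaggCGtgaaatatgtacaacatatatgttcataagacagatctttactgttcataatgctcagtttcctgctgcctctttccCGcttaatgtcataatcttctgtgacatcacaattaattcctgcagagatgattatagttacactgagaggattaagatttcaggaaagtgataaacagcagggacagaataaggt

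The constant promoters of LINC00662 and LINC02226 held 20 and 31 CG pairs and the constant LOC124903082 window held 3, while the 3 lost windows held 2, 4 and 0 and the 3 gained windows 3, 1 and 2. Over all windows at constant regions (15 windows) the median number of CG pairs was 5, with a range of 0 to 31. Over the 10 windows at lost regions it was 3, with a range of 0 to 74, and over the 5 windows at gained regions it was 3, with a range of 1 to 8. The ranges of the 3 sets overlap.

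The 47 desert windows were poorer in GC than promoters elsewhere. Their median GC content was 47.7%, against 60.3% in 4900 long non-coding RNA windows at remaining regions and 58.7% in all 33725 windows. They held a median of 3 CG pairs, against 18 and 14. Motif letters were searched on both strands, and ETS and TEAD matches can overlap by 4 letters. AP-1 letters (TGANTCA), the binding sequence of the FOS and JUN proteins, were in 11 desert windows, or 23.4%, against 12.2% of the long non-coding RNA windows at remaining regions and 7.67% of all windows. Of these 11 windows, 5 were at constant regions, and 0 of 10 lost and 0 of 5 gained windows held the letters. GATA letters (AGATAA) were in 23.4% of desert windows, against 9.04% and 10.4%. RUNX letters (TGTGGT) were in 25.5%, against 14.1% and 13.1%. The hypoxia factor HIF, whose letters (ACGTG) hold a CG pair, had matches in 8.51%, against 22.8% and 21.3%. ETS letters (CCGGAA) were in 8.51%, against 19.1% and 17.3%. C/EBP letters (TTGCNNAA) were in 19.1%, against 9.84% and 10.5%, and TEAD letters (GGAATG) in 21.3%, against 15.6% and 14.0%. The longer motif of CTCF was in 2.13%, against 5.53% and 4.66%, and that of NF-kB in 6.38%, against 7.12% and 6.56%. The shares rest on 47 windows, some of which overlap each other, and are given without a test.

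The lists held 164782 to 201588 autosomal peaks, and their background pileup, the read coverage outside peaks recovered from the deposited values, was 6.09 to 8.34 in the Raf-active libraries and 3.01 to 5.02 in the Raf-inactive libraries. Raf-active lists were thus deeper, and absence from a list means only that no peak was called at that depth. The mean background pileup was also higher in hypoxia than in normoxia. It was 4.785 against 3.23 with Raf inactive and 7.315 against 6.745 with Raf active. Of 14 fibroblast marker genes, 11 had a peak within 1 kb of an end of the gene in all 16 libraries, while PRRX1 had one in 14, COL3A1 in 7 and THY1 in 0. Of 5 epithelial markers 2 had such a peak in all 16 (EPCAM and KRT18), CDH1 had it in 5, KRT5 in 1 and KRT14 in 0. Endothelial PECAM1, CDH5 and VWF each had it in 1 library and TEK in 13, and among blood markers PTPRC had it in 3, but CD3E, SPI1 and CD14 in 16. Their part in the results was not tested.

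Gene desert regions were somewhat narrower than the others. Their merged width had a median of 419 bp, with a range of 203 to 2193 bp, against a median of 473 bp for the remaining regions. Their distance to the nearest protein-coding gene, which the choice of members sets at 500 kb or more, ranged from 500.1 to 4748 kb, with a median of 705 kb. Desert peaks were narrower than other peaks of the same library in 16 of 16 libraries, with a mean difference of -27.9 bp between library medians (exact sign-flip permutation over libraries, two-sided, p = 3.05e-05, the smallest it can give, adjusted p = 0.000168 over 11 tests). By fold enrichment over the local background, as the authors' peak caller gave it, desert peaks ranked higher than the others within their list. The mean difference was 3.73 percentile points (higher in 16 of 16 libraries, p = 3.05e-05 in the same exact test, adjusted p = 0.000168). That mean pools 4 unlike groups. It was 7.58 points in Raf-active normoxia and 5.23 in Raf-active hypoxia, but 0.63 in Raf-inactive normoxia and 1.47 in Raf-inactive hypoxia. When only peaks with 5-fold or higher enrichment were ranked, an alternative chosen after seeing the data, the mean difference over libraries was -0.33 points (p = 0.180, exact sign-flip permutation).

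Long non-coding RNA genes were the main annotation in the deserts. Of the 5381 regions, 1748 (32.5%) overlapped a long non-coding RNA gene body, against 14.9% of the remaining regions. A further 30 lay in pseudogenes and 10 in ribosomal RNA gene bodies, whose repeated copies make the placing of reads uncertain. In normoxia, 21.97% of the regions in long non-coding RNA genes and 23.04% of the other 3633 desert regions were lost with Raf. The difference between these shares was not tested.

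Fewer gene desert regions were called when Raf was active, in normoxia and in hypoxia. Raf-active normoxia libraries had 2008, 2087, 2058 and 2256 of the 5381 regions, against 3281, 3278, 3299 and 3357 in Raf-inactive normoxia libraries. Raf-active hypoxia libraries had 2443, 2410, 2531 and 2438, against 3597, 3595, 3484 and 3531 in Raf-inactive hypoxia libraries. No Raf-active library reached the lowest Raf-inactive library in either oxygen state. The mean was 2102 ± 108 in Raf-active normoxia and 3304 ± 36.7 in Raf-inactive normoxia (SD, n = 4 each), a difference of -1201.5 regions or -36.4% (exact permutation test, two-sided, p = 0.0286, adjusted p = 0.0314). In hypoxia the mean was 2455.5 ± 52.4 with Raf active and 3552 ± 54.6 with Raf inactive, a difference of -1096 regions or -30.9% (exact permutation p = 0.0286, adjusted p = 0.0314). With 4 libraries against 4, 0.0286 is the smallest p the test can give.

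**Figure D1:**
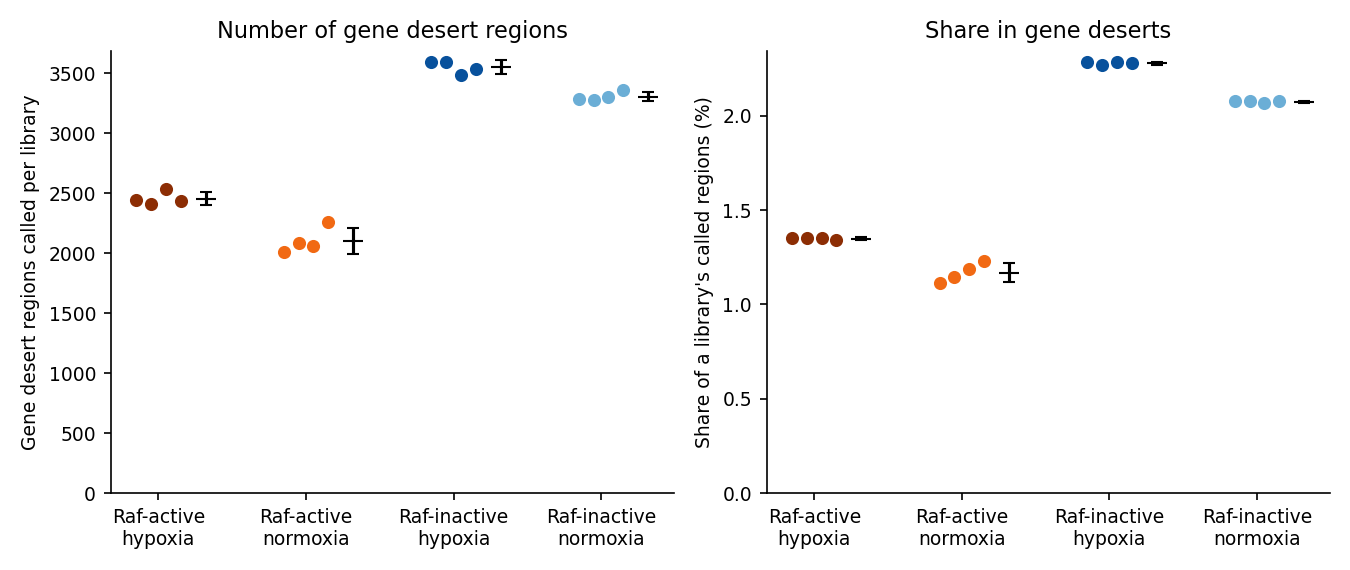
Number of gene desert regions called per library (left) and share of a library's called autosomal regions that lie in gene deserts (right, in percent). Points are libraries, and bars give mean ± SD of 4 libraries; the 8 Raf-active libraries sit between 2008 and 2531 regions, below the 8 Raf-inactive libraries at 3278 to 3597.

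The share of a library's called regions that lay in deserts sets their number against the length of its list, and it was also lower with Raf active. It was 1.17% ± 0.05 in Raf-active normoxia and 2.07% ± 0.006 in Raf-inactive normoxia (SD, n = 4 each), a difference of -0.91 percentage points (exact permutation p = 0.0286, adjusted p = 0.0314). In hypoxia it was 1.35% ± 0.006 with Raf active and 2.28% ± 0.007 with Raf inactive, a difference of -0.93 points (exact permutation p = 0.0286, adjusted p = 0.0314). After the lists were thinned to equal background coverage, the differences were -0.87 points in normoxia and -0.90 in hypoxia. With lists of equal length they were -0.86 and -0.89 points. The thinning equalised background coverage alone, and read totals were not used.

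Hypoxia went with more called desert regions in each Raf state. With Raf active, hypoxia libraries had 353 more desert regions than normoxia libraries on average, or 16.8% (exact permutation p = 0.0286, adjusted p = 0.0314). Without Raf-active hypoxia replicate 1 or replicate 3 the difference was 357 and 328 regions, with an exact permutation p of 0.0571 each. With Raf inactive, hypoxia libraries had 248 more, or 7.51% (exact permutation p = 0.0286, adjusted p = 0.0314), and 120 more at matched depth (exact permutation p = 0.0286). The desert share was higher in hypoxia by 0.18 points with Raf active and by 0.20 points with Raf inactive (exact permutation p = 0.0286 and adjusted p = 0.0314 for each). The Raf difference of the share in hypoxia minus that in normoxia was -0.02 points (exact permutation of oxygen labels within each Raf state, p = 0.773). That permutation tests for no oxygen effect of any kind, and its p does not show that the Raf difference was the same in both oxygen states.

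Beyond 50 kb from genes, the change with Raf was lower in each more distant class, in both oxygen states. The numbers in these classes were not scaled for list length or depth, so where a change crosses 0 depends on both. Over all classes, a mean of 179813 regions were called in Raf-active and 159277 in Raf-inactive normoxia libraries. For hypoxia these means were 182016 and 155893. In normoxia, the mean number of called regions was 10.5% higher with Raf active inside protein-coding genes, 29.4% higher up to 50 kb from them and 5.77% higher at 50 to 250 kb. The difference was -13.1% at 250 to 500 kb, -33.3% at 500 kb to 1 Mb and -49.0% at 1 Mb and more. The last class held 1046 regions, with 332.5 ± 19.7 called in Raf-active and 651.5 ± 17.7 in Raf-inactive normoxia libraries (SD, n = 4 each). In hypoxia the Raf difference was 14.1% inside genes, 32.1% up to 50 kb, 13.3% at 50 to 250 kb, -6.42% at 250 to 500 kb, -27.0% at 500 kb to 1 Mb and -45.9% at 1 Mb and more. Hypoxia libraries had more called regions in the 2 farthest classes. With Raf active the number was 16.2% and 19.8% higher there, and with Raf inactive 6.18% and 12.9% higher. The rise was not limited to the deserts. At 250 to 500 kb it was 13.4% with Raf active and 5.28% with Raf inactive, and at 50 to 250 kb 8.96% and 1.74%. Up to 50 kb the differences were -0.10% and -2.08%, and inside genes -0.68% and -3.82%. Of 886 regions just inside the 500 kb limit, at 500 to 550 kb, 20.2% were lost with Raf in normoxia. Of 1129 regions just outside it, at 450 to 500 kb, 17.5% were. With hypoxia and Raf active, 3.84% of the regions just inside and 5.85% of those just outside were gained. With hypoxia and Raf inactive, 2.37% and 3.63% were gained, and 2.26% and 1.24% were lost.

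**Figure D2:**
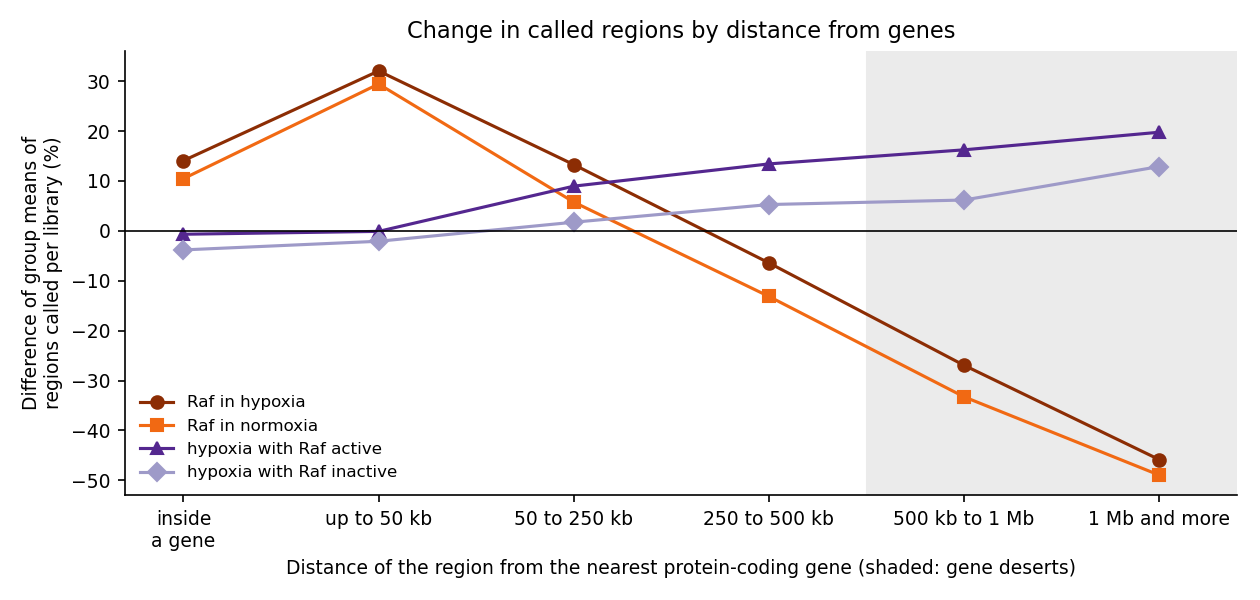
Difference between group means of called regions per library, in percent, by distance from the nearest protein-coding gene, with a line for each comparison (Raf active against inactive, hypoxia against normoxia). Numbers are not scaled for list length or depth. The Raf lines fall below 0 beyond 250 kb and reach -49.0% in normoxia and -45.9% in hypoxia at 1 Mb and more, while the hypoxia lines climb to 19.8% with Raf active and 12.9% with Raf inactive.

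Single regions were called gained when 4 of 4 libraries of the first group and 0 of 4 of the second had a peak, and lost in the opposite case. With Raf in normoxia, 1221 desert regions were lost, or 22.7% of the deserts, against 10.4% of the remaining regions and 10.6% of all autosomal regions. In the other direction 395 were gained, or 7.34%, against 14.3% of the remaining regions and 14.2% of all. With Raf in hypoxia, 1164 were lost, or 21.6%, against 8.56% of the remaining regions and 8.81% of all, and 421 were gained, or 7.82%, against 14.0% and 13.9%. In deserts losses outnumbered gains with Raf, whereas in the remaining regions gains outnumbered losses. In the remaining regions the size of that excess depends on depth and peak strength. At matched depth, 31010 were gained and 30411 lost in normoxia and 29458 gained and 23996 lost in hypoxia. Among peaks of 5-fold or higher enrichment these numbers were 23951 and 23472 in normoxia and 22245 and 21589 in hypoxia. In deserts losses were more numerous under both, with 333 gained and 1202 lost in normoxia and 294 and 1089 in hypoxia at matched depth, and 304 and 880 in normoxia and 284 and 900 in hypoxia at 5-fold.

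Hypoxia moved fewer single regions, and in deserts mostly toward gain. With Raf active, 255 desert regions were gained in hypoxia, or 4.74%, against 3.60% of the remaining regions and 3.62% of all. Another 88 were lost, or 1.64%, against 3.13% and 3.1%. With Raf inactive, 168 were gained, or 3.12%, against 1.44% and 1.47%, and 78 were lost, or 1.45%, against 1.61% and 1.61%. The last share is near that of all regions.

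**Figure D3:**
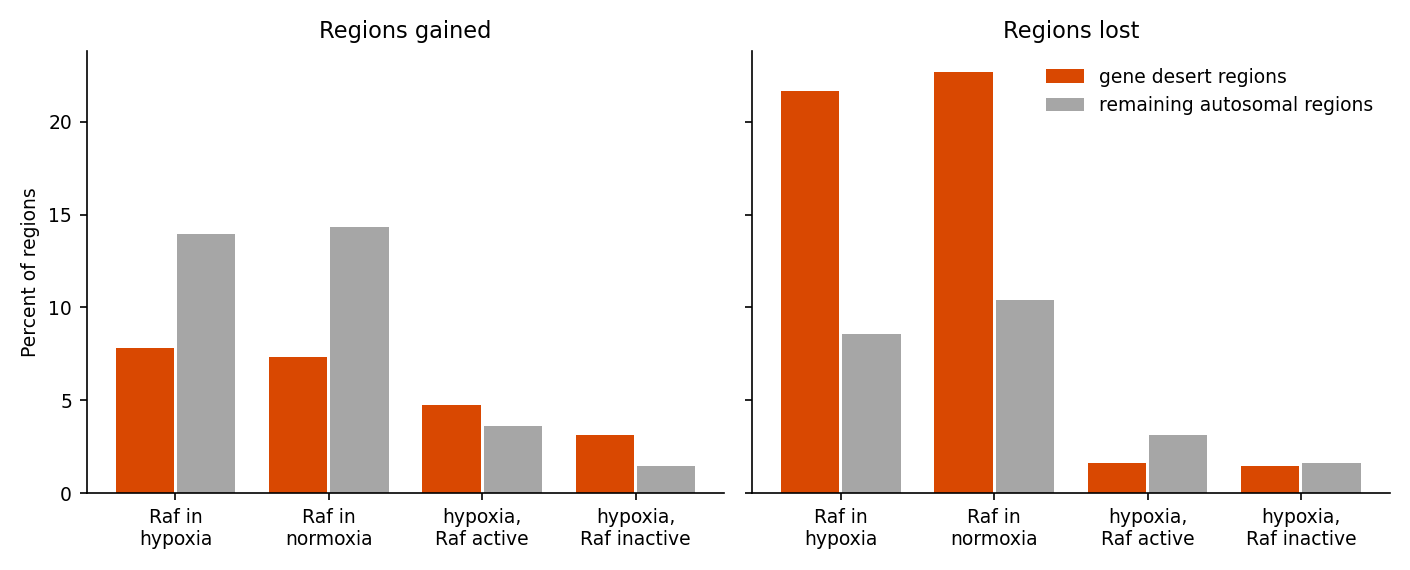
Percent of gene desert regions and of remaining autosomal regions gained (left) or lost (right) in each comparison, where gained means a peak in 4 of 4 libraries of the first group and 0 of 4 of the second. Desert losses with Raf stand at 21.6% in hypoxia and 22.7% in normoxia, against 8.56% and 10.4% of the remaining regions.

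Across the 4 groups, 999 desert regions (18.6%) had a peak in all 16 libraries, against 26.5% of the remaining regions. A peak in all 8 Raf-inactive and in no Raf-active library marked 723 regions (13.4%), against 5.26% of the remaining regions. The opposite pattern marked 183 regions (3.40%), against 7.09%. A further 94 (1.75%) had a peak in all libraries of every group but Raf-active normoxia, against 0.83%. Of the 1221 regions lost with Raf in normoxia, 966 (79.1%) were missing from all lists of Raf-active hypoxia, and 98 (8.03%) were in 4 of 4 of those lists. Among the remaining regions lost in the same way these shares were 76.4% and 8.96%, so that return in hypoxia was about as rare in deserts as elsewhere.

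Lost regions were of middle strength. In the Raf-inactive normoxia lists the 1221 lost regions had median percentiles of -log10 p of 46.4, 46.1, 47.7 and 47.3, and the 999 constant desert regions had 69.9, 70.04, 70.5 and 70.7. In the Raf-active normoxia lists the constant desert regions stood at 64.3, 65.1, 64.3 and 67.6, while constant remaining regions stood at 76.2 to 77.8. In the Raf-inactive hypoxia lists the order was the other way, with 74.5 to 75.8 for constant desert regions and 72.7 to 73.6 for constant remaining regions. Chromosomes differed in how much they lost. Chromosome 3 had 396 desert regions, of which 30.8% were lost and 4.80% gained with Raf in normoxia. Chromosome 12 had 122, of which 12.3% were lost and 22.1% gained, and chromosome 20 had 92, of which 7.61% were lost and 17.4% gained. Chromosomes 12, 16, 20 and 22 were those with more gains than losses, and chromosome 19 had 2 of each.

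The regions described next were taken from the top of each class by rank, so a peak in every library of 1 group and in none of the other is how the gained and lost ones were chosen. The constant region with the highest rank, at chr19:27793013-27794518 between ZNF254 and UQCRFS1, holds the LINC00662 promoter printed above and a start of LINC02987. Its summit fold enrichment was 17.99, 18.3, 17.5 and 18.4 in Raf-active hypoxia and 17.7, 18.4, 19.0 and 18.4 in Raf-active normoxia. It was 20.2, 19.0, 19.7 and 20.4 in Raf-inactive hypoxia and 18.9, 19.3, 18.8 and 19.0 in Raf-inactive normoxia. All 16 libraries had a peak there. These folds are the authors' values, relative to each library's own background; they describe the peak within its list, and since depth differs between lists they were not tested between groups.

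The highest-ranked region lost in normoxia was at chr3:104359459-104360356, between ZPLD1 and ALCAM, a cell adhesion gene, and inside the long non-coding RNA gene LOC105374020. No Raf-active normoxia library had a peak there, and the 4 Raf-inactive normoxia libraries had folds of 25.4, 24.9, 26.2 and 24.4. In hypoxia, Raf-active libraries had folds of 3.5, 3.6 and 4.8 in 3 libraries and no peak in replicate 2, against 26.3, 25.4, 25.7 and 25.2 in Raf-inactive libraries. Between OTOL1 and SI, the gene of intestinal sucrase-isomaltase, the regions at chr3:162203283-162204129 and chr3:162354229-162354872 had no peak in any Raf-active library. Their folds in Raf-inactive libraries ranged from 21.5 to 25.6 and from 18.8 to 24.9. A region at chr13:104315000-104316061, between SLC10A2 and DAOA, had no peak in Raf-active normoxia, against folds of 19.5, 22.3, 21.8 and 19.9 in Raf-inactive normoxia.

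The highest-ranked region gained in hypoxia with Raf was at chr5:164027698-164028330, between MAT2B and TENM2, a teneurin of neuronal adhesion. Its folds were 26.9, 26.2, 29.0 and 26.3 in Raf-active hypoxia and 23.4, 25.05, 29.6 and 30.4 in Raf-active normoxia, and no Raf-inactive library had a peak. At chr1:30023225-30024055, in LINC01648 between PTPRU and MATN1, the folds were 10.9, 9.3, 11.4 and 10.6 in Raf-active hypoxia and 12.1, 11.9, 12.0 and 12.5 in Raf-active normoxia, again with no peak in Raf-inactive libraries. At chr11:23370646-23371454, between CCDC179 and LUZP2, the folds were 28.7, 30.4, 26.7 and 31.7 in Raf-active normoxia, with no peak in Raf-inactive normoxia. In Raf-active hypoxia that peak was present at 7.2, 3.9, 5.7 and 5.0. A region at chr2:220660700-220661401, between SLC4A3 and the ephrin receptor gene EPHA4, had folds of 11.9, 11.5, 11.4 and 11.3 in Raf-active hypoxia and no peak in Raf-inactive hypoxia.

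The next regions were chosen as gained or lost with hypoxia, apart from those near a miRNA. At chr18:39339914-39340460, in the host gene of miR-924, Raf-active hypoxia libraries had folds of 12.9, 9.3, 12.5 and 16.1, and no library of another group had a peak. Desert regions within 2 kb of a miRNA hairpin were listed, and those near miR-924, let-7c and miR-3668 were picked after their values were seen. The region near miR-924, 1278 bases from the hairpin, had a peak in 4 of 4 Raf-active hypoxia and 3 of 4 Raf-active normoxia libraries and in 0 of the 8 Raf-inactive libraries. The mature sequence, with the seed (bases 2 to 8) in capitals, is printed from RefSeq.
hsa-miR-924: aGAGUCUUgugaugucuugc
The desert on chromosome 21 that holds let-7c, whose family targets cell cycle and RAS messenger RNAs, had a region 1337 bases from the hairpin. Its folds were 12.4, 16.9, 16.7 and 17.2 in Raf-active hypoxia and 6.0, 6.3, 7.6 and 6.0 in Raf-active normoxia, against 4.8, 4.0, 6.7 and 5.0 in Raf-inactive hypoxia. In Raf-inactive normoxia they were 4.0, 4.5 and 3.8 in 3 libraries, with no peak in replicate 3.
hsa-let-7c-5p: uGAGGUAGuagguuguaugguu
The region 745 bases from the miR-3668 hairpin on chromosome 6 had folds of 6.3, 6.4, 6.7 and 7.0 in Raf-active hypoxia and 5.2, 6.0, 4.7 and 7.0 in Raf-active normoxia. It had 16.9, 14.98, 17.9 and 18.8 in Raf-inactive hypoxia and 13.3, 13.8, 16.3 and 14.8 in Raf-inactive normoxia.
hsa-miR-3668: aAUGUAGAgauugaucaaaau
Desert regions near the miR-5583 and miR-6724 hairpins had a peak in all 16 libraries.
At chr11:29451995-29452613, in LINC02755 between METTL15 and KCNA4, Raf-active hypoxia libraries had folds of 11.4, 14.1, 10.8 and 11.03, and no Raf-active normoxia library had a peak. With Raf inactive the same region had 15.4, 18.7, 20.4 and 18.9 in hypoxia, against 6.7, 6.0, 5.3 and 6.9 in normoxia. At chr5:125679358-125680083, between ZNF608 and GRAMD2B, the direction was opposite: no Raf-active hypoxia library had a peak, against folds of up to 23.1 and no less than 19.5 in the 4 Raf-active normoxia libraries. With Raf inactive, the region at chr4:34170797-34171385, in LINC02484 between the protocadherin gene PCDH7 and ARAP2, had folds of 12.0, 13.1, 16.2 and 17.4 in hypoxia and no peak in normoxia. With Raf active that region had a peak in 4 of 4 libraries of each oxygen state.

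The lost and gained promoters printed above were chosen by their calls in normoxia, so their difference there is the choice and not a result. The LOC105379082 region had folds of 13.2, 14.6, 11.6 and 8.9 in Raf-inactive hypoxia and 11.4, 7.0, 13.3 and 9.8 in Raf-inactive normoxia, and no peak in any Raf-active library. The LOC107986154 region had 16.7, 17.4, 16.1 and 14.4 in Raf-inactive hypoxia and 11.9, 11.4, 11.6 and 13.3 in Raf-inactive normoxia, but weak peaks of 2.4 and 2.7 in 2 of 4 Raf-active hypoxia libraries. Within LOC124903082, in the desert beside the limb and breast transcription factor gene TBX3, the constant start had a peak in all libraries. The gained start had folds of 6.9, 6.3, 6.8 and 5.9 in Raf-active hypoxia and 4.2, 4.2, 4.4 and 4.7 in Raf-active normoxia, and no peak with Raf inactive. The LINC02234 region had folds of 8.9, 10.6, 9.2 and 10.1 in Raf-active hypoxia and 11.1, 10.4, 11.7 and 9.6 in Raf-active normoxia, with peaks of 3.6 and 3.7 in 2 of 4 Raf-inactive hypoxia libraries and none in Raf-inactive normoxia. The LINC02309 region had 15.1, 15.4, 15.9 and 14.1 in Raf-active hypoxia, against 4.5, 4.6, 5.8 and 4.9 in Raf-active normoxia. With Raf inactive it had 9.4, 7.5, 13.6 and 12.1 in hypoxia and no peak in normoxia.

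To compare whole deserts, regions called per library were counted in blocks, in which every base is 500 kb or more from a protein-coding gene; a block is named by the protein-coding genes on its sides. Of 209 blocks with a desert region, 137 had a mean of at least 3 called regions, and these held 5201 of the 5381 regions. They were fitted in limma together with their flanks and the other gaps between coding genes, on log2 of the scaled number of called regions plus 1, with 4 group means and Benjamini-Hochberg adjustment over all 5798 segments. With Raf in normoxia, 110 of the 137 blocks fell and 15 rose (adjusted p below 0.05), against 31.1% of all segments that fell and 43.7% that rose. In hypoxia 108 fell and 11 rose, against 29.9% and 42.6%. The median log2 change of the blocks was -0.88 in normoxia and -0.78 in hypoxia, against 0.11 and 0.10 over all segments. Without scaling, these medians were -0.73 and -0.57 for the blocks and 0.26 and 0.30 for all segments, and the block medians stayed below 0.

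Blocks were set beside their own surroundings without a test. In 133 blocks with tested flanks, that is the same gap between genes within 500 kb of a gene, the median log2 change with Raf in normoxia was -0.88 in the blocks and -0.59 in their flanks. In hypoxia it was -0.78 in the blocks and -0.57 in the flanks. The block was below its flanks in 85 cases and above them in 48 in normoxia, and below in 83 and above in 50 in hypoxia. The flanks thus had lower medians with Raf too. With hypoxia, blocks and flanks lay close together: the medians were 0.18 in the blocks and 0.20 in the flanks with Raf active, and 0.11 in both with Raf inactive.

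**Figure D4:**
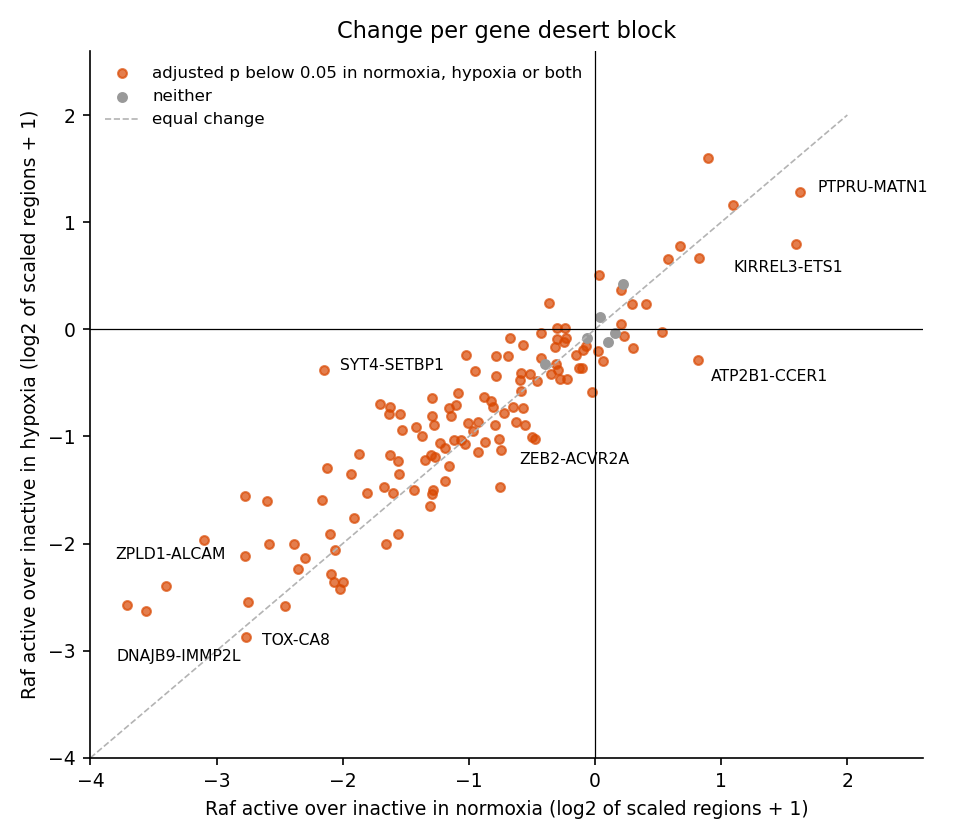
Log2 change of called regions with Raf active over Raf inactive for each of 137 gene desert blocks, in normoxia (x axis) and hypoxia (y axis), on log2 of the scaled number plus 1; colour marks blocks called in normoxia, hypoxia or both. Most blocks lie below 0 on both axes, with ZPLD1-ALCAM at -3.71 in normoxia and PTPRU-MATN1 at 1.63.

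The block between ZPLD1 and ALCAM on chromosome 3 (32 regions) had the largest fall with Raf in normoxia. It had 1 called region in each Raf-active normoxia library, against 24, 24, 20 and 24 in Raf-inactive normoxia (log2 change -3.71, SE 0.09, limma adjusted p = 1.02e-14). In hypoxia it had 4, 3, 5 and 4 with Raf active, against 25, 26, 23 and 25 with Raf inactive. With Raf active, more regions were thus called in hypoxia than in normoxia, and the Raf change was higher in hypoxia by 1.13 (limma adjusted p = 2.06e-05). This block passed the filter on low numbers, a mean of at least 3 called regions, only through the Raf-inactive libraries. With 1 region in each Raf-active normoxia library, the size of these fitted changes depends on the pseudocount of 1.

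The block between DNAJB9 and IMMP2L on chromosome 7 (16 regions) had 1, 0, 0 and 0 called regions in Raf-active normoxia, against 13, 13, 10 and 13 in Raf-inactive normoxia (log2 change -3.56, SE 0.19, limma adjusted p = 9.08e-11). The block between IMPG1 and LOC105377864 on chromosome 6 (12 regions) had 0 in each Raf-active normoxia library, against 9, 8, 9 and 10 (log2 change -3.40, SE 0.09, limma adjusted p = 3.61e-14). In hypoxia the block between TOX, a T-cell HMG-box factor gene, and CA8 had the lowest fitted change of the 137 blocks, with 0, 0, 1 and 0 in Raf-active libraries, against 7 in each Raf-inactive library (log2 change -2.87, SE 0.16, limma adjusted p = 1.93e-10). These blocks passed the filter on low numbers only through the Raf-inactive libraries, and where a group is at or near 0 the size of the fitted change depends on the pseudocount of 1. Next to the protocadherin gene PCDH20, Raf-active hypoxia libraries had 5, 4, 5 and 4 called regions, against 27, 29, 26 and 28 in Raf-inactive hypoxia (log2 change -2.58, SE 0.08, limma adjusted p = 6.35e-13).

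Few blocks rose with Raf. Between PTPRU, a receptor tyrosine phosphatase gene, and MATN1, a cartilage matrix gene, Raf-active libraries had 61, 64, 50 and 57 called regions in normoxia, against 15, 18, 14 and 17 in Raf-inactive normoxia (log2 change 1.63, SE 0.08, limma adjusted p = 3.29e-11). In hypoxia they had 54, 52, 57 and 55, against 20, 21, 16 and 18 (log2 change 1.28, SE 0.08, limma adjusted p = 7.45e-10). Beside ETS1, a transcription factor gene downstream of Raf and ERK signalling, the block with KIRREL3 had 41, 43, 37 and 41 in Raf-active normoxia, against 11, 12, 11 and 11 in Raf-inactive normoxia (log2 change 1.59, SE 0.06, limma adjusted p = 2.75e-12). The block between the adhesion gene CADM1 and BUD13 had 17, 21, 17 and 22, against 6, 8, 9 and 7 (log2 change 1.10, SE 0.10, limma adjusted p = 5.68e-08). In hypoxia the highest fitted change of the 137 blocks was between LOC107984449 and TMEM132C, with 6, 5, 6 and 6 in Raf-active libraries, against 1 in each Raf-inactive library (log2 change 1.60, SE 0.14, limma adjusted p = 4.37e-08). It passed the filter only through the Raf-active libraries.

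**Figure D5:**
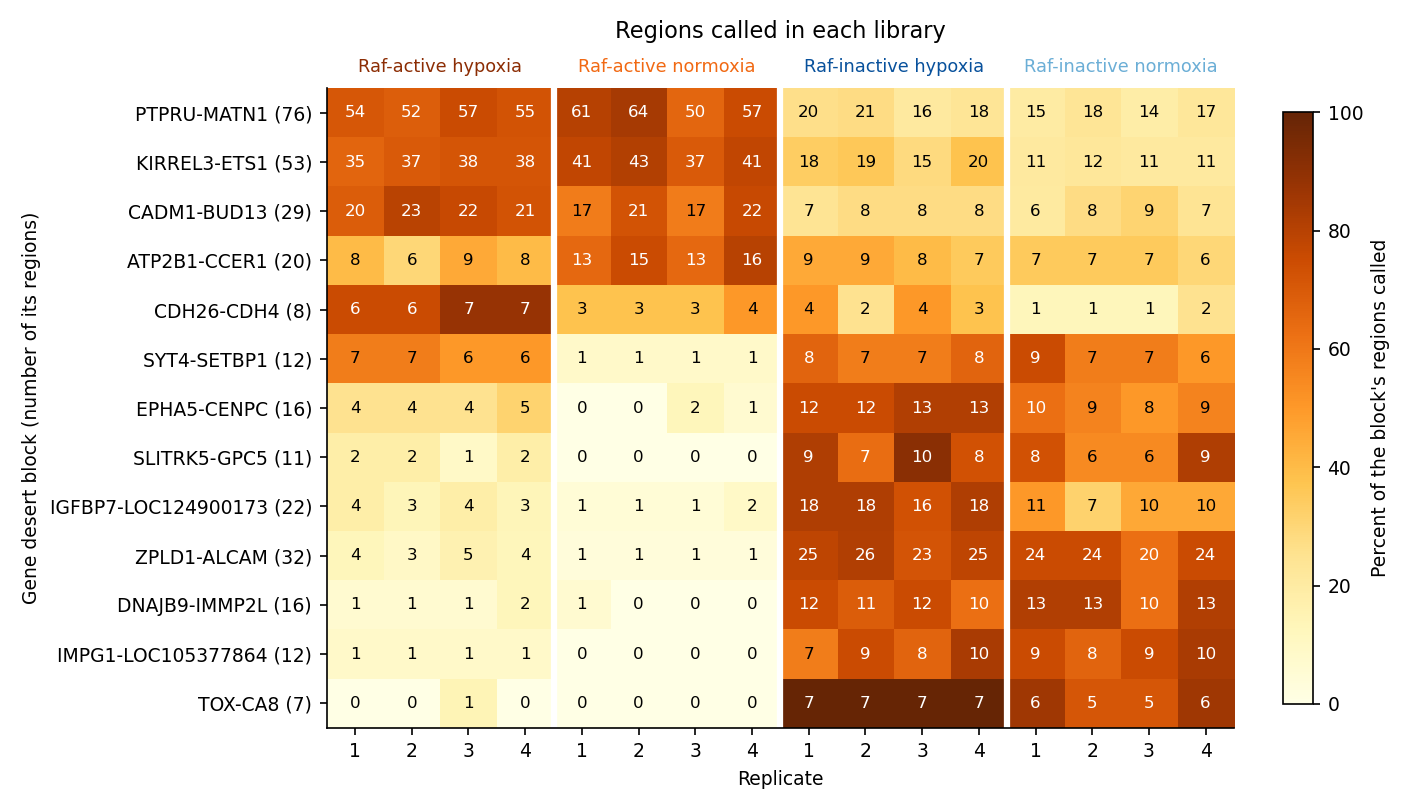
Called regions per library in 13 named gene desert blocks (rows, with the number of regions of the block in brackets), with colour giving the percent of the block's regions called. PTPRU-MATN1 has 50 to 64 called regions in Raf-active and 14 to 21 in Raf-inactive libraries, and SYT4-SETBP1 has 1 in each Raf-active normoxia library and 6 to 9 in the others.

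Among the blocks with the most regions, the scaled numbers were lower with Raf in normoxia by unequal amounts in the 4 described here. The block between ZEB2, the gene of a transcriptional repressor, and ACVR2A held 154 regions. It had 57, 63, 63 and 68 called in Raf-active normoxia, against 96, 93, 99 and 92 in Raf-inactive normoxia (log2 change -0.77, SE 0.04, limma adjusted p = 6.97e-11). The block between LOC105372073 and PIK3C3 held 142 and had 46, 49, 53 and 53, against 95, 94, 99 and 97 (log2 change -1.10, SE 0.04, limma adjusted p = 1.45e-12). In contrast, the block between CITED2 and LOC124901415 held 145 regions and had 84, 84, 82 and 90, against 90, 92, 93 and 94 (log2 change -0.29, SE 0.04, limma adjusted p = 1.71e-06). The desert between MYC and GSDMC, known for enhancers of MYC, held 124 and had 70, 73, 76 and 74, against 78, 77, 79 and 74 (log2 change -0.24, SE 0.03, limma adjusted p = 9.89e-06). In hypoxia its log2 change with Raf was -0.12 with scaling and 0.10 without, so its direction there depends on the scaling. With only peaks of 5-fold or higher enrichment, CITED2 to LOC124901415 and MYC to GSDMC lost their calls in normoxia (limma adjusted p = 0.993 and 0.0812).

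More blocks rose than fell with hypoxia. With Raf active, 68 of 137 blocks rose and 12 fell, against 22.1% and 12.7% of all segments, and the median log2 change was 0.19, against 0.00 over all segments. With Raf inactive, 38 rose and 3 fell, against 12.7% and 8.24%, with a median of 0.11, against 0.02. The 3 that fell were 1 without Raf-inactive normoxia replicate 2 or 3 and without Raf-inactive hypoxia replicate 3 or 4.

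With Raf active, the block between the synaptotagmin gene SYT4 and SETBP1 rose most. It had 7, 7, 6 and 6 called regions in Raf-active hypoxia, against 1 in each Raf-active normoxia library (log2 change 1.86, SE 0.10, limma adjusted p = 2.70e-09). Beside the ephrin receptor gene EPHA5 there were 4, 4, 4 and 5, against 0, 0, 2 and 1 (log2 change 1.68, SE 0.25, limma adjusted p = 8.27e-05). Between SLITRK5, a gene of synapse formation, and GPC5 there were 2, 2, 1 and 2, against 0 in each (log2 change 1.38, SE 0.15, limma adjusted p = 3.34e-06). The EPHA5 and SLITRK5 blocks passed the filter on low numbers only through the Raf-inactive libraries, which are outside this comparison. Where a group is at or near 0, as in Raf-active normoxia here, the size of the fitted change depends on the pseudocount of 1. The largest fall was between the calcium pump gene ATP2B1 and CCER1, with 8, 6, 9 and 8 in Raf-active hypoxia, against 13, 15, 13 and 16 in Raf-active normoxia (log2 change -0.82, SE 0.10, limma adjusted p = 8.93e-06). Between HAS2, the gene of a hyaluronan synthase, and ZHX2 there were 9, 9, 10 and 9, against 11, 13, 11 and 12 (log2 change -0.33, SE 0.06, limma adjusted p = 0.000822). Between NETO1 and FBXO15 there were 6, 7, 7 and 7, against 10, 10, 9 and 9 (log2 change -0.45, limma adjusted p = 7.55e-05), but -0.21 with a limma adjusted p of 0.311 at matched depth.

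With Raf inactive, the changes with hypoxia were smaller. Between CDH26 and CDH4, genes of the cadherin family of cell adhesion, there were 4, 2, 4 and 3 called regions in Raf-inactive hypoxia, against 1, 1, 1 and 2 in Raf-inactive normoxia (log2 change 0.95, SE 0.16, limma adjusted p = 0.000740). That block passed the filter on low numbers only through the Raf-active libraries, which are outside this comparison. Beside IGFBP7, the gene of a secreted protein that binds insulin-like growth factors, there were 18, 18, 16 and 18, against 11, 7, 10 and 10 (log2 change 0.87, SE 0.13, limma adjusted p = 0.000398). Between AGA and the teneurin gene TENM3 there were 38, 42, 39 and 39, against 22, 22, 26 and 25 (log2 change 0.75, SE 0.06, limma adjusted p = 6.46e-06). The falls were small: -0.24 between PTCHD4 and MMUT, -0.16 between LRFN5 and FSCB and -0.10 between SLC4A3 and EPHA4, with limma adjusted p of 0.00743, 0.0440 and 0.0277. The call between SLC4A3 and EPHA4 was lost when any 1 of 5 libraries was left out (adjusted p up to 0.0777), and that between LRFN5 and FSCB at matched depth (log2 change -0.09, limma adjusted p = 0.112). That between PTCHD4 and MMUT was lost among peaks of 5-fold or higher enrichment (log2 change -0.18, limma adjusted p = 0.309).

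The Raf change in hypoxia was higher than that in normoxia in 40 of the 137 blocks and lower in 13, against 15.7% and 11.8% of all segments. The highest was SYT4 to SETBP1 (1.78, SE 0.14, limma adjusted p = 1.12e-06), followed by EPHA5 to CENPC (1.21, SE 0.35, adjusted p = 0.0178) and SLITRK5 to GPC5 (1.14, SE 0.21, adjusted p = 0.00111). The EPHA5 call was lost in 13 of the 16 fits that left out 1 library (adjusted p up to 0.0694). The EPHA5 and SLITRK5 blocks passed the filter on low numbers only through the Raf-inactive libraries, and their sizes depend on the pseudocount of 1. The lowest was ATP2B1 to CCER1 (-1.10, SE 0.14, adjusted p = 5.74e-05), followed by KIRREL3 to ETS1 (-0.80, SE 0.09, adjusted p = 2.32e-05) and KHDRBS3 to FAM135B (-0.72, SE 0.19, adjusted p = 0.0103). These p-values are limma's, adjusted over all segments.

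Blocks were also grouped by how the names of the genes beside them begin. The list of developmental transcription factor genes made in this way leaves out others, such as ETS1 and ZEB2. For all 137 blocks, the share that fell with Raf was 80.3% in normoxia and 78.8% in hypoxia. Of 9 blocks beside developmental transcription factor genes, 8 fell and 1 rose with Raf in normoxia, and 8 fell and 1 rose in hypoxia, with median log2 changes of -0.81 and -0.72. The block that rose lies between TBX3 and MED13L: it had 49, 43, 45 and 49 called regions in Raf-active normoxia, against 26, 28, 28 and 27 in Raf-inactive normoxia (log2 change 0.58, SE 0.04, limma adjusted p = 4.78e-09). Beside SOX9, the master regulator of cartilage, there were 50, 51, 49 and 57, against 62, 56, 56 and 55 (log2 change -0.32, SE 0.05, limma adjusted p = 2.70e-05). The blocks beside TBX3 and SOX9 were picked from this list after their values were seen.

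Of 26 blocks beside adhesion gene families taken by name, such as cadherins, protocadherins and SLITRK genes, 22 fell and 2 rose with Raf in normoxia. The families include CDH5, used above as an endothelial marker, so they are not a class of 1 cell type. With Raf in hypoxia 19 of these blocks fell and 2 rose, and the median log2 changes were -0.997 in normoxia and -1.05 in hypoxia. With hypoxia, 17 rose and 1 fell with Raf active, and 12 rose and 0 fell with Raf inactive. In the 102 blocks in neither list, 80 fell and 12 rose with Raf in normoxia, with a median of -0.85, against -0.88 over all 137 blocks. Over all 137 blocks, 80.3% fell with Raf in normoxia and 78.8% in hypoxia, and with hypoxia 49.6% rose with Raf active and 27.7% with Raf inactive. In the 102 blocks, 47 rose with hypoxia and Raf active and 25 with Raf inactive. Differences between the lists and the other blocks were not tested.

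Deserts also differed in the share of their regions that were lost. In 87 blocks with at least 20 regions, the share lost with Raf in normoxia ranged from 0% between PTPRU and MATN1 to 53.1% between ZPLD1 and ALCAM, with a median of 22.2%. The share gained ranged from 0% to 35%, the highest between ATP2B1 and CCER1, with a median of 4.76%. The spread among deserts was wide, but 115 of the 137 blocks had a log2 change below 0 with Raf in normoxia, and 120 had one in hypoxia.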

How the data were processed

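ATAC-seq libraries of 16 IMR90 samples, 4 in each of 4 groups, were used as 1 deposited peak list per library; replicates were not pooled in them. The submitters' processing notes name MACS2, Bowtie2 and bedtools, besides cutadapt, FastQC, Picard, SAMtools and deepTools, and the hg38 build; versions, order, settings and any shift of read ends are not given in the sources used here. Each peak has the authors' fold enrichment at its summit, a ratio to the local background. It also has the authors' -log10 p and -log10 q, and a deposited score that is 10 times the -log10 q. These values depend on depth. They were used to rank or filter peaks within a list and are given per library to describe single regions, with no test between lists.

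Regions were merged, assigned to deserts with the RefSeq gene table of GRCh38.p14 (19122 protein-coding genes on chromosomes 1 to 22) and counted per library in Python 3.11.15. Another 956 desert regions with a peak in 1 library only were left out. Read totals were not used here; background coverage was recovered from fold and p, and lists were thinned to equal background as an alternative. Single values were compared by exact permutation, two-sided, with Benjamini-Hochberg adjustment over 11 tests. Blocks were tested with limma 3.58.1 (R 4.3.3) in 1 fit over 16 libraries; segments needed a mean of 3 called regions, and numbers were scaled to the same total. The fit was tested on simulated counts drawn independently for each library (Poisson), where it missed most changes and made few false calls. The simulation did not copy the spread among the real libraries, so these rates need not hold for the blocks. A block without a call may still have changed. The labels give replicate numbers but do not say whether they pair the libraries, which were treated as unpaired.

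Blocks were named as the 3 largest rises and falls per comparison and the 5 with the most regions. Regions were named as the 4 highest-ranked constant ones and the 2 highest-ranked gained and lost per comparison, of which part is described; some items are not reported here. The members, gene lists, rules and motif letters were chosen with earlier results of these data known. Motif and GC content over desert regions were planned but not analysed here, since no genome was used.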

Additional observations from a re-analysis of the deposited data

Results flagged for a closer look

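The Raf change in hypoxia differed from that in normoxia in 16 named blocks (limma interaction, adjusted over all segments), given here as the log2 difference, hypoxia minus normoxia. It was higher in hypoxia for SYT4 to SETBP1 (1.78), EPHA5 to CENPC (1.21), SLITRK5 to GPC5 (1.14), ZPLD1 to ALCAM (1.13), IMPG1 to LOC105377864 (1.00), DNAJB9 to IMMP2L (0.93), LOC107984449 to TMEM132C (0.71), PTCHD4 to MMUT (0.64), LOC105372073 to PIK3C3 (0.39) and SLC4A3 to EPHA4 (0.12). It was lower in hypoxia for ATP2B1 to CCER1 (-1.10), KIRREL3 to ETS1 (-0.80), KHDRBS3 to FAM135B (-0.72), NETO1 to FBXO15 (-0.50), PTPRU to MATN1 (-0.35) and ZEB2 to ACVR2A (-0.26). In SLITRK5 to GPC5 and IMPG1 to LOC105377864, all Raf-active normoxia libraries had 0 called regions, and in DNAJB9 to IMMP2L and EPHA5 to CENPC some had 0. The size of the difference there depends on the pseudocount of 1. Some blocks, such as SYT4 to SETBP1 and ATP2B1 to CCER1, were named for the size of this same difference. The count of 16 is thus in part set by the choice of blocks. Over all 137 blocks the Raf change was called higher in hypoxia in 29.2% and lower in 9.49%, against 15.7% and 11.8% of all segments.

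In 14 of 116 groups of 4 libraries, 1 library stood apart from the other 3 by Dixon's ratio (its 95% critical value). The rate of about 1 in 20 that goes with this value assumes continuous, normally spread values. Several flags are small counts, such as scaled numbers of 0.94, 0, 0 and 0, where 1 differing library is enough. The 14 flags can therefore not be set against that rate. The desert share of Raf-inactive normoxia replicate 3 was 2.07%, the lowest of its group. The other cases are scaled numbers of called regions in a block. Among Raf-active hypoxia libraries they were 1.86 in DNAJB9 to IMMP2L (replicate 4), 0.90 in TOX to CA8 and in SLITRK5 to GPC5 (replicate 3 in each) and 3.802 in KHDRBS3 to FAM135B (replicate 2). Among Raf-active normoxia libraries they were 0.94 in DNAJB9 to IMMP2L (replicate 1) and 1.84 in IGFBP7 to LOC124900173 (replicate 4). Among Raf-inactive normoxia libraries they were 21.2 in ZPLD1 to ALCAM and 10.6 in DNAJB9 to IMMP2L (replicate 3 in each), 96.4 in CITED2 to LOC124901415 (replicate 1) and, in replicate 4, 6.28 in ATP2B1 to CCER1, 2.09 in CDH26 to CDH4, 10.5 in LRFN5 to FSCB and 77.5 in MYC to GSDMC.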

How the results depend on the processing

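Apart from leaving out a library, 298 of the recomputed values kept their direction and call or moved little, 10 counts moved by over 1.5 times, 17 values lost their call and 6 reversed. With the replicate block, which the data do not back (16 correlations between same-numbered libraries from -0.03 to 0.05, 2 of 16 libraries closest to their own number), the share differences stayed at -0.91, -0.93, 0.18 and 0.20 points and the number differences at -1201.5, -1096, 353 and 248 regions. Their exact sign-flip p was then 0.125, the smallest that 4 pairs can give, and LRFN5 to FSCB lost its call (limma adjusted p = 0.0800). With deserts from 250 kb the Raf by oxygen difference of the share was 0.0317 points (exact permutation p = 0.873). With only peaks of 5-fold or higher enrichment, the fold rank difference was -0.33 and 162 regions were gained with hypoxia and Raf active. With at least 3 of 4 against at most 1 of 4 libraries, 622 regions were gained with Raf in normoxia and 635 in hypoxia; with hypoxia, 512 were gained and 216 lost with Raf active, and 508 gained and 303 lost with Raf inactive. Blocks that rose with Raf in hypoxia numbered 20 without scaling and 17 without the filter on low numbers, and 24 had a lower Raf change in hypoxia without that filter. MYC to GSDMC in hypoxia reversed to 0.10 without scaling and 0.0798 at 5-fold, and at 5-fold LRFN5 to FSCB reversed to 0.0854 and KHDRBS3 to FAM135B to 0.31. Without scaling, the share of called segments that were higher went to 69.9% in the Raf comparison in normoxia and 74.9% in hypoxia, against 58.4% and 58.8% with it, and to 49.6% for hypoxia with Raf inactive, against 60.7%. Leaving out 1 library at a time, the number difference for hypoxia with Raf active ranged over 322 to 404.5 and the blocks that fell with hypoxia and Raf inactive over 1 to 3. The causes were not tested. Depth limits all counts, since a weak peak may be missed in a shallow list.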
